A study of Mus musculus with 12 samples.

Results

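The genes examined were 8 genes of fatty acid synthesis: Acly, Me1, Fasn, Elovl6, Scd1, Scd2, Thrsp and Srebf1. They were taken by name, as every probe set whose platform annotation names only 1 of these genes, which gave 12 probe sets of the 12422 on the array and 8 genes of the 8251 with a single-gene probe set. Of the 12 probe sets, 11 were bright enough to be tested. The remaining Scd1 probe set was too dim, at 64.2 to 83.5 on all 12 arrays. Where a gene had several probe sets, the one with the highest mean stood for it.

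Perigonadal fat of female mice, 6 months old and fed ad libitum, was profiled on 12 Affymetrix arrays, 1 per mouse, with 3 mice in each of 4 groups. The overexpressors carried a Glut4 transgene driven by the aP2 promoter, and their controls were littermates, all on the FVB strain. The knockouts lacked Glut4 in adipose tissue, and their controls were mice carrying aP2-Cre, all on a C57B6/FVB/SV129 mix. Slc2a4, which encodes the insulin-responsive glucose transporter Glut4, is the gene both models alter. The aP2 promoter is that of Fabp4, active in adipocytes and also in other cells such as macrophages. Each mutant was read only against the controls of its own line, because the lines were on different strain backgrounds. The lowest deposited intensity was 21.9 on each array of the overexpressor line and 22.27 on each array of the knockout line. The lines therefore also appear to have been processed separately, and strain and processing cannot be told apart here.

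Adipocyte markers were bright in all groups, with Adipoq, the gene of adiponectin, at 5196 to 6986 in overexpressors and their controls and at 5948 to 6878 in knockouts and their controls. All 14 adipocyte markers named by a single-gene probe set were bright enough to test. Fatty acids are also made in mammary epithelium, and of its 14 markers 7 were bright enough to test, among them Csn3, a milk casein (483 to 707 over all arrays), and Cdh1, the epithelial cadherin (312 to 397), while Csn1s1 and Epcam lay at or near the floor on all arrays. The 7 tested markers summed to 2360 to 2525 in overexpressors and 2559 to 2725 in their controls, and to 1450 to 1700 in knockouts and 1529 to 1753 in their controls, with 0 called; their part in the values of the 8 genes was not tested. Slc2a4 itself did not check the labels well: its brighter probe set read 625, 1110 and 1042 in overexpressors, against 639, 583 and 1212 in controls, which overlapped (log2 fold change 0.22, limma adjusted p = 0.930). It read 378, 365 and 363 in knockouts, against 416, 514 and 614 in controls, every knockout lying below every control (-0.43, adjusted p = 1.00). The labels do not say which part of the gene was altered in the knockouts, so this probe set may lie outside that part. Whether it reads the transcript of the transgene was not tested.

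Fat cells turn glucose into fatty acids through a short chain of steps. Citrate from the mitochondrion is split to acetyl-CoA by ATP citrate lyase (Acly). Malic enzyme (Me1) supplies NADPH, and fatty acid synthase (Fasn) builds palmitate. Elovl6 then lengthens palmitate, and the stearoyl-CoA desaturases Scd1 and Scd2 introduce a double bond. Thrsp, also called Spot14, is a nuclear and cytosolic protein that promotes the pathway. Srebf1 encodes the transcription factor SREBP-1, which together with the glucose-responsive factor ChREBP switches these genes on after feeding. In white fat of mice the pathway is known to follow glucose entry and insulin.

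The sequence before the start site of 4 of these genes is shown because Elovl6, Acly, Fasn and Thrsp moved together from mouse to mouse; they were chosen after that was seen. The 250 bases before the start are printed 5′ to 3′ on the gene's own strand, from RefSeq on GRCm38.p6. Capitals mark CCAAT, the element bound by NF-Y, and GGGCGG, the GC box bound by Sp1, on either strand, so that the reverse-strand forms read ATTGG and CCGCCC.

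Elovl6 promoter, chr3:129532136-129532385, plus strand: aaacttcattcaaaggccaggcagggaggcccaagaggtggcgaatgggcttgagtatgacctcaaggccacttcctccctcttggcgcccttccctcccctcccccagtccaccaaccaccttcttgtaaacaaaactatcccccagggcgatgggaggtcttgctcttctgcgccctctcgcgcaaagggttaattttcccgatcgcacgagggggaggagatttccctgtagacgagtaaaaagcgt

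Acly promoter, chr11:100528001-100528250, minus strand: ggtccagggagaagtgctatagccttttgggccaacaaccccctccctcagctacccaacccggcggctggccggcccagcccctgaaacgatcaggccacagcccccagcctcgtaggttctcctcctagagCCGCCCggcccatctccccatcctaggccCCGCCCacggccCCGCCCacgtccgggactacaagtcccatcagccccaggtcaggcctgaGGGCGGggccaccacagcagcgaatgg

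Fasn promoter, chr11:120824548-120824797, minus strand: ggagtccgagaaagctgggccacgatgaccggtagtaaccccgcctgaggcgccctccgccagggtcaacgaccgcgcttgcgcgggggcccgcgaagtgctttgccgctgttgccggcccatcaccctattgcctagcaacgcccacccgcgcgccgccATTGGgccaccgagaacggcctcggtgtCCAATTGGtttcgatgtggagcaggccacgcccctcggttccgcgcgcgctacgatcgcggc

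Thrsp promoter, chr7:97417551-97417800, minus strand: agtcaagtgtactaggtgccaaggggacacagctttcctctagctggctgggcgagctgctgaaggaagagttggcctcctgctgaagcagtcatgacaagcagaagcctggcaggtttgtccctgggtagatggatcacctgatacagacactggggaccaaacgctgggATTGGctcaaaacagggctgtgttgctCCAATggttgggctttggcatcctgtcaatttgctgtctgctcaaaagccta

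A promoter entry was matched for 6 of the 8 genes, Scd1 and Scd2 being the other 2, and several start sites brought the number of windows to 9. CCAAT was in 5 of the 9 windows, of Thrsp, Me1, Srebf1 and Fasn, and in 33.8% of all 32851 windows of this length. The Fasn window held 3, of which a forward and a reverse copy overlapped. The GC box was in 4 of the 9 windows, of Me1, Srebf1 and Acly, and in 32.7% of all windows; the Acly window held 4 copies. The E-box CACGTG, present in 6.02% of all windows, was in none of the 9, and neither was TCACNCCAC, a form of the sterol response element present in 1.05%. The Elovl6 window held none of these motifs, and no motif was in every printed window. The matches are of letters only, in windows that start no further than 250 bases upstream.

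In overexpressor fat, Elovl6 mRNA was above every control, and Acly, Me1, Fasn, Thrsp, Srebf1 and Scd1 had higher means with overlapping groups, whereas Scd2 had a lower mean. No member passed the test over all probe sets. Log2 fold changes below are on the scale log2(intensity + 36.92), with standard errors (SE) from limma and p-values adjusted by Benjamini-Hochberg over 7454 probe sets. By that test 6 of 7454 probe sets (0.0805%) were called in this comparison, against 0 of the 8 members; 355 probe sets (4.76%) and 1 member, Elovl6, had an unadjusted p under 0.05. The calls were 2 higher (0.0268%) and 4 lower (0.0537%) probe sets, and at the unadjusted threshold 1.23% of probe sets were higher and 3.53% lower.

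**Figure D1:**
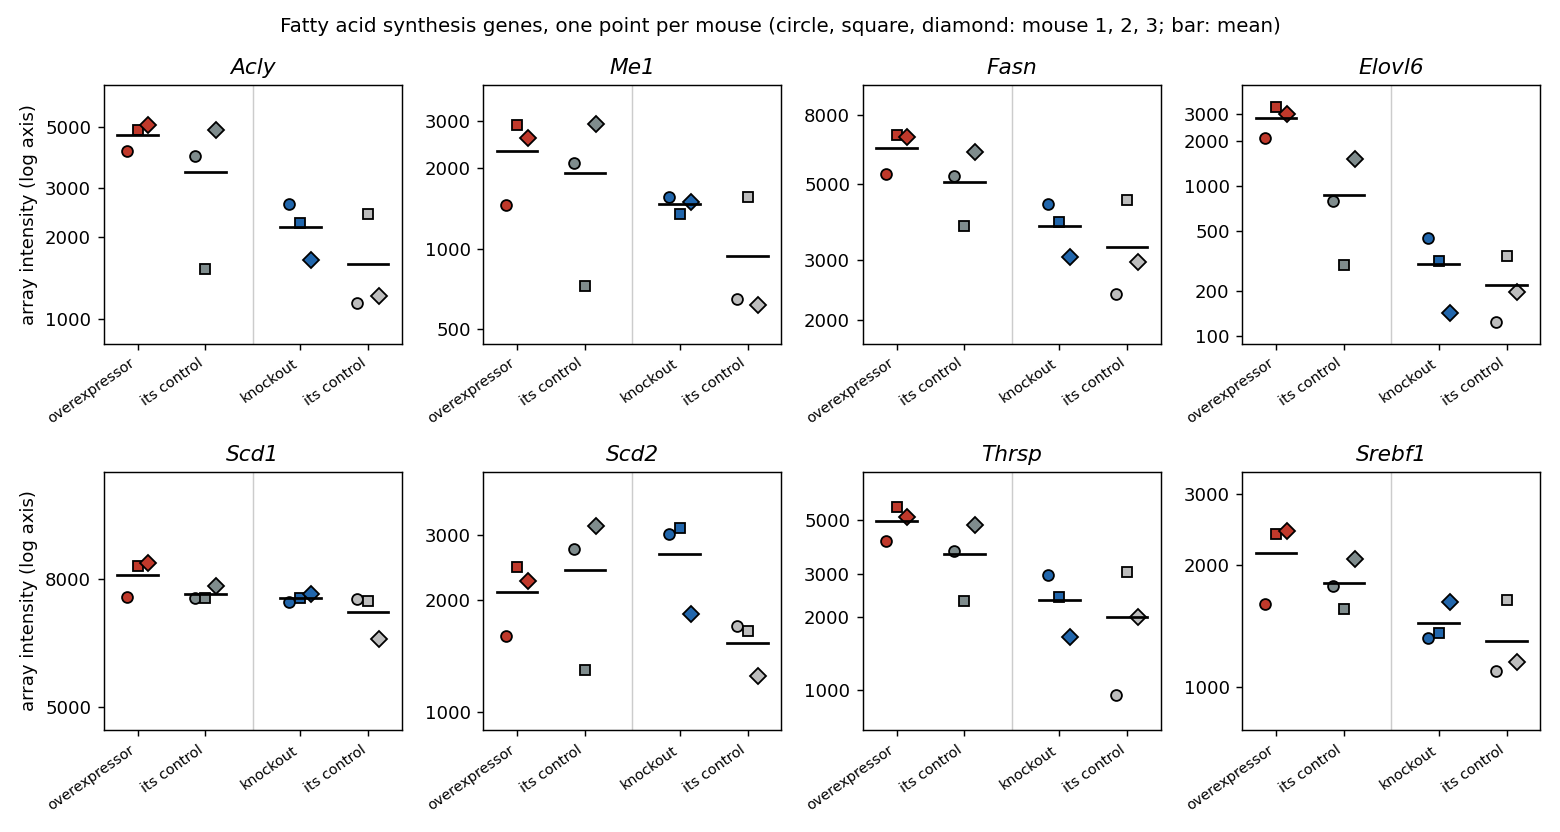
Array intensity (log axis) of the 8 genes in each of 12 mice, with the mean of each group as a bar; levels are to be read within a line, on one side of the grey divider. Elovl6 is the gene whose 3 overexpressors (2075 to 3342) all lie above their controls (296 to 1508), and Scd1 is nearly flat within the groups.

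Elovl6, the elongase that turns palmitate into stearate, had the highest log2 fold change of the 8 genes. Taking 1 probe set per gene, Elovl6 was also highest of all 5707 tested genes, among which the lowest value, larger in size, was -2.22. Its brighter probe set read 2075, 3342 and 3021 in overexpressors, against 789, 296 and 1508 in controls. The lowest overexpressor was above the highest control, a separation in this direction that 171 of 7454 tested probe sets (2.29%) also showed. The means were 2813 ± 659 in overexpressors and 864 ± 609 in controls (SD, n = 3 arrays each), a ratio of 3.25. The log2 fold change was 1.89 (SE 0.50, 95% interval 0.80 to 2.99, limma adjusted p = 0.510). A second Elovl6 probe set read 1249, 2354 and 1895 in overexpressors, against 487, 95.8 and 942 in controls, again without overlap. It gave a log2 fold change of 2.15 (SE 0.60, adjusted p = 0.510). The interval of each Elovl6 probe set lay above 0, but the adjustment over all probe sets removed both.

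The enzymes that supply acetyl-CoA and NADPH were higher on average, with overlap. Acly read 4090, 4880 and 5096 in overexpressors, against 3918, 1528 and 4892 in controls. Control 2 stood far below the other 5 mice, and 1 overexpressor exceeded the highest control. The log2 fold change was 0.59 (SE 0.38, 95% interval -0.23 to 1.41, limma adjusted p = 0.913). Me1 read 1457, 2898 and 2604 in overexpressors, against 2094, 726 and 2932 in controls. No overexpressor exceeded the highest control, and the log2 fold change was 0.42 (SE 0.46, adjusted p = 0.928). Without control 2 that of Acly was 0.092 and that of Me1 was -0.15.

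Fasn, the synthase itself, was bright on all arrays. It read 5357, 6974 and 6855 in overexpressors, against 5288, 3769 and 6211 in controls. Of the overexpressors, 2 were above the highest control, and overexpressor 1 lay close to control 1. The log2 fold change was 0.35 (SE 0.24, 95% interval -0.16 to 0.86, limma adjusted p = 0.913), and 0.15 without control 2.

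For the desaturases the groups overlapped. Scd1, the main desaturase of fat, read 7480, 8387 and 8457 in overexpressors, against 7452, 7458 and 7782 in controls. These were among the brightest values of each array, at or above the 99.95th percentile, and the log2 fold change was 0.098 (SE 0.090, 95% interval -0.098 to 0.29, limma adjusted p = 0.921). The other tested Scd1 probe set, at 6846 to 7866 in overexpressors and 7025 to 7799 in controls, gave -0.0043. Whether signals this bright still follow the amount of mRNA was not tested. Scd2 read 1603, 2457 and 2259 in overexpressors, against 2751, 1301 and 3172 in controls. The overexpressors lay inside the range of the controls, with a log2 fold change of -0.12 (SE 0.31, 95% interval -0.78 to 0.55, adjusted p = 0.969). The second Scd2 probe set gave -0.14.

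The 2 regulators were higher on average. Thrsp read 4120, 5663 and 5176 in overexpressors, against 3752, 2329 and 4799 in controls. Control 2 was again the lowest, 2 overexpressors exceeded the highest control, and the log2 fold change was 0.50 (SE 0.37, limma adjusted p = 0.913), or 0.22 without control 2. Srebf1 read 1604, 2385 and 2437 in overexpressors, against 1776, 1557 and 2078 in controls. Overexpressor 1 lay near the lowest control and the other 2 overexpressors above the highest, with a log2 fold change of 0.23 (SE 0.19, 95% interval -0.19 to 0.65, adjusted p = 0.916), or 0.12 without overexpressor 3 and 0.42 without overexpressor 1. The files do not say which Srebf1 transcripts this probe set reads.

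Counted together, 7 of the 8 members had a log2 fold change above 0, with a median of 0.38. Over all 5707 tested genes, 28.6% were above 0 (29.6% of probe sets) and the median was -0.075. The members' median was 0.11 without control 2 of the overexpressor line and 0.62 without control 3, and 0 of 8 members were called in any fit that left out 1 array.

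In knockout fat the means of all 8 genes were also above those of the controls, and Scd2 had the largest change without overlap. No member passed. By limma's adjusted p, 9 of 7454 probe sets (0.121%) were called in this comparison, all of them higher, and 297 (3.98%; 3.47% higher) had an unadjusted p under 0.05, Scd2 being the 1 member among them.

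**Figure D2:**
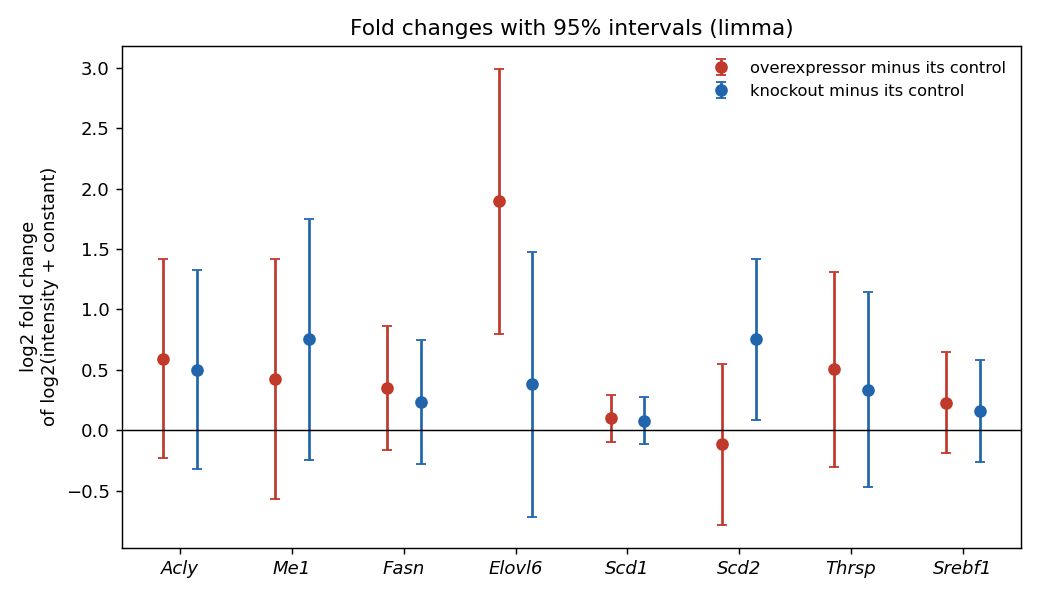
Log2 fold change of each gene with its 95% interval from limma, overexpressor minus its control in red and knockout minus its control in blue. Among the overexpressor values only the interval of Elovl6 (0.80 to 2.99) excludes 0, and among the knockout values only that of Scd2 (0.085 to 1.42); neither passes the adjusted test.

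Scd2 read 3026, 3127 and 1837 in knockouts, against 1705, 1654 and 1252 in controls. Every knockout was above every control, as for 419 of 7454 tested probe sets (5.62%). The means were 2663 ± 717 in knockouts and 1537 ± 248 in controls (SD, n = 3 arrays each), with a log2 fold change of 0.75 (SE 0.31, 95% interval 0.085 to 1.42, limma adjusted p = 1.00). The second Scd2 probe set read 1211, 1137 and 732 in knockouts, against 679, 726 and 505 in controls. It too did not overlap, with knockout 3 only just above control 2, and gave 0.64 (SE 0.31, adjusted p = 1.00). Scd1 read 7352, 7443 and 7570 in knockouts, against 7427, 7356 and 6421 in controls, a log2 fold change of 0.080 (SE 0.090, adjusted p = 1.00). Its groups overlapped for this probe set, while for the other one the knockouts, at 7257 to 7555, lay above the controls, at 6471 to 6759, with 0.15 (SE 0.086).

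Me1 had a log2 fold change as large as that of Scd2 but with more spread. It read 1557, 1354 and 1496 in knockouts, against 646, 1557 and 618 in controls. The knockouts were close to one another, controls 1 and 3 were far below them and control 2 matched the highest knockout to within 1 intensity unit. The log2 fold change was 0.75 (SE 0.46, 95% interval -0.24 to 1.75, limma adjusted p = 1.00). Acly read 2630, 2239 and 1644 in knockouts, against 1144, 2413 and 1213 in controls. The same control 2 lay among the knockouts, and the log2 fold change was 0.50 (SE 0.38, adjusted p = 1.00). Without control 2 it was 0.84 for Acly and 1.17 for Me1, and without control 1 it was 0.31 for Acly.

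Fasn, Elovl6, Thrsp and Srebf1 overlapped widely. Fasn read 4367, 3879 and 3068 in knockouts, against 2396, 4485 and 2967 in controls, with a log2 fold change of 0.23 (SE 0.24), or 0.032 without control 1 and 0.48 without control 2. Elovl6 read 452, 318 and 144 in knockouts, against 126, 341 and 196 in controls, with 0.38 (SE 0.50, 95% interval -0.72 to 1.48), or 0.062 without knockout 1 and 0.78 without knockout 3. Control 2 was the highest control for both genes, and knockout 3 was the lowest knockout.

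Thrsp read 2986, 2424 and 1647 in knockouts, against 956, 3068 and 1991 in controls. No knockout exceeded control 2, and the log2 fold change of 0.33 (SE 0.37) turned to -0.11 when control 1 was left out. Srebf1 read 1324, 1360 and 1621 in knockouts, against 1092, 1642 and 1153 in controls, with 0.16 (SE 0.19), or 0.053 without control 1 and 0.34 without control 2. The limma adjusted p of these 4 genes was 1.00.

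In the knockout comparison 8 of 8 members were above 0, with a median log2 fold change of 0.36, where 64.0% of all 5707 tested genes (63.0% of probe sets) were above 0 and the median was 0.045. The members' median was 0.10 without control 1 of the knockout line and 0.70 without control 2.

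The effects in the 2 lines were set against each other by an interaction contrast, overexpressor effect minus knockout effect, which called 12 of 7454 probe sets (0.161%) and 0 of the 8 members; 4.95% of probe sets and no member had an unadjusted p under 0.05. The difference was 1.52 for Elovl6 (SE 0.71, 95% interval -0.036 to 3.07, limma adjusted p = 0.893) and -0.87 for Scd2 (SE 0.43, 95% interval -1.81 to 0.075, adjusted p = 0.893). For the other 6 genes it lay between -0.33 (Me1) and 0.17 (Thrsp), with adjusted p from 0.932 to 0.984. No difference between the effects was therefore shown for any of these genes, and the interval for Me1, for example, ran from -1.74 to 1.08.

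The spread between mice of a group was larger for most of these genes than for a typical gene. The standard deviation within groups, on the log2 scale over 12 mice, was 0.75 for Elovl6, 0.68 for Me1, 0.56 for Acly and 0.55 for Thrsp, where the median over tested genes was 0.18. Elovl6 varied more than 99.6% of tested genes, Me1 more than 99.4%, Scd2 more than 98.0% and Fasn more than 92.3%. Srebf1 was at 79.4% and Scd1 at 4.28%. Among the controls of the overexpressor line alone, the highest Elovl6 value was 5.10 times the lowest, that of Me1 4.04 times and that of Acly 3.20 times, against 1.04 times for Scd1.

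**Figure D3:**
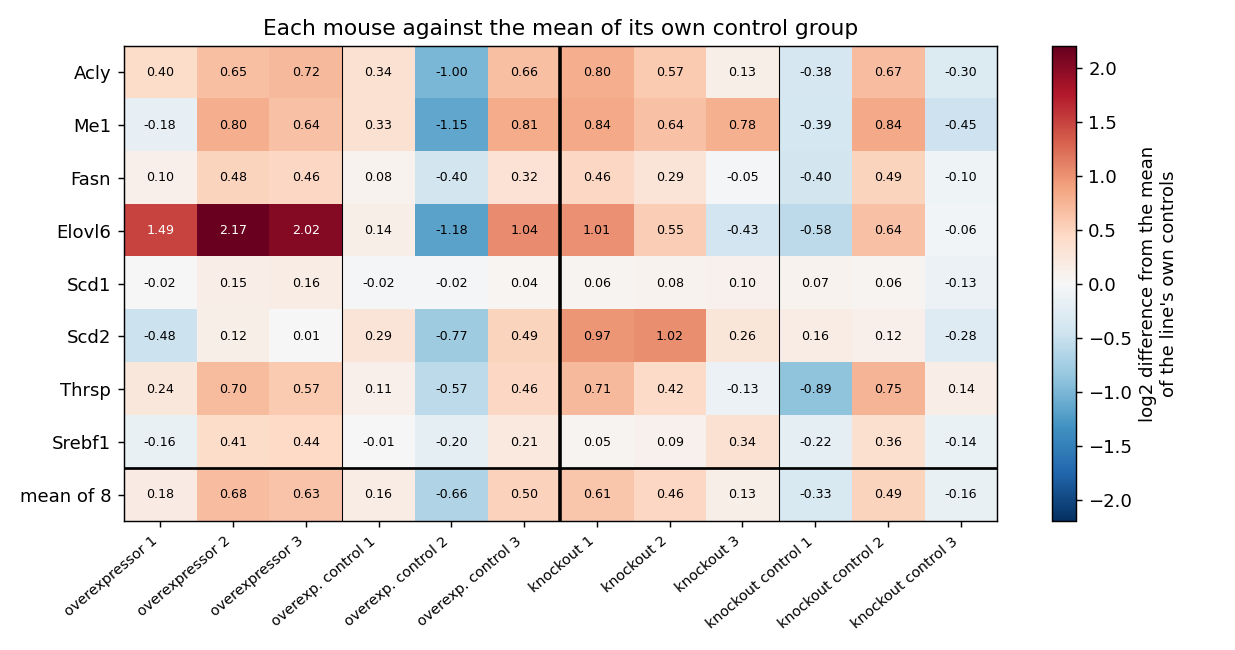
Log2 difference of each mouse (columns) from the mean of its own line's controls, for each gene and for the mean of the 8 (bottom row); red is above and blue below. Overexpressor control 2 is low in nearly every row, with a mean of -0.66, and knockout control 2 is high, with a mean of 0.49.

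Several of the genes were high or low in the same mice, more uniformly in the overexpressor line than in the knockout line. Averaged over the 8 genes, overexpressors 1, 2 and 3 stood 0.18, 0.68 and 0.63 above the mean of their controls on the log2 scale, and the controls themselves stood at 0.16, -0.66 and 0.50. Control 3 was above overexpressor 1, so these means overlap. Knockouts 1, 2 and 3 stood at 0.61, 0.46 and 0.13, and their controls at -0.33, 0.49 and -0.16; control 2 exceeded knockouts 2 and 3. Overexpressor 1 was the lowest of its group for 8 of 8 genes, control 2 of that line for 7 of 8, and control 3 the highest for 8 of 8. Knockout control 2 was the highest of its group for 6 of 8. The other mice of that line were less uniform: knockout 1 was the highest for 5 genes and the lowest for 2, knockout 3 the lowest for 5 and the highest for 2, and control 1 the lowest for 5 and the highest for 2.

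Array brightness was set beside this pattern, and its part in the pattern was not tested. Overexpressor 1 and knockout control 3 had the lowest median intensities of all arrays (188 and 186), and overexpressor 1 was also the lowest of its group for all 8 genes. Overexpressor control 2, with the lowest mean over the 8 genes, had a median of 214, inside the range of the other arrays of its line (188 to 219). With array medians subtracted, 0 members were called, and the median log2 fold change of the members was 0.44 in overexpressors and 0.32 in knockouts.

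**Figure D4:**
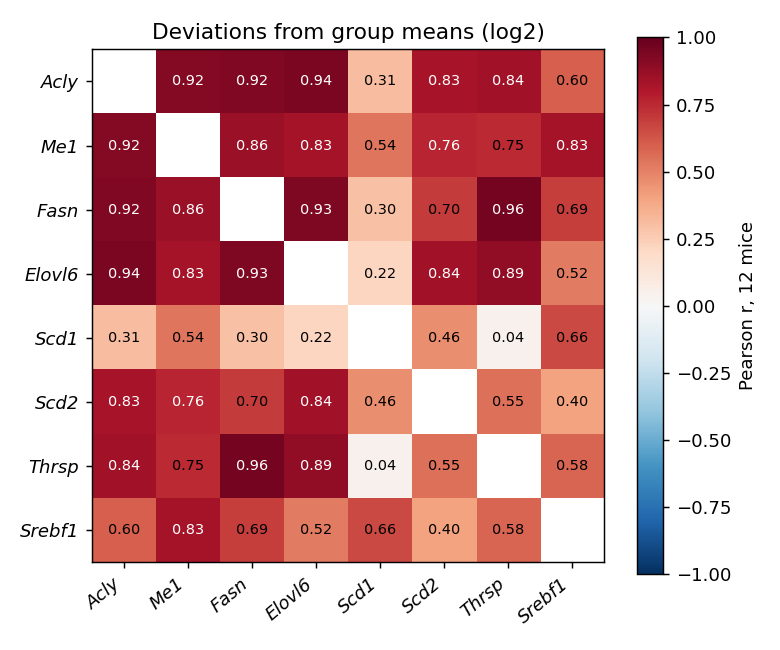
Pearson correlation between each pair of genes, over 12 mice, of the deviations from the group means on the log2 scale. Acly, Me1, Fasn, Elovl6 and Thrsp form a block of high values, with Scd1 apart (0.041 with Thrsp to 0.66 with Srebf1).

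Once the group means were removed, the deviations of the 8 genes were correlated for 28 of 28 pairs in the positive direction, with a median Pearson r of 0.72 over 12 mice. Over all pairs of 5707 tested genes the median was 0.17, and 10105765 of 16282071 pairs were positive. The highest value was 0.96, for Fasn with Thrsp, followed by 0.94 for Elovl6 with Acly. The 6 pairs among Elovl6, Acly, Fasn and Thrsp, whose promoters are printed above, lay between 0.84 and 0.96. Me1 overlapped that range, with 0.92 for Acly, 0.86 for Fasn, 0.83 for Elovl6 and 0.75 for Thrsp. Scd2 was closest to Elovl6 (0.84), Srebf1 was closest to Me1 (0.83) and the 7 pairs with Scd1 had a median of 0.31. The median over the 28 pairs was 0.95 within the 6 arrays of the overexpressor line and 0.55 within the 6 of the knockout line, where 25 of 28 pairs were positive and the lowest r was -0.26. It was 0.65 without overexpressor control 2, with 27 of 28 positive, and 0.83 without knockout control 1. These correlations describe the same 12 arrays, share each array's brightness and carry no test.

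Outside the 8 genes, the closest pattern over the 12 mice, after each line's mean was removed, was that of Tkt, transketolase of the pentose phosphate pathway (Pearson r = 0.96, Spearman rho = 0.91, with the mean of the 8). Next came Phlda3 (0.94), Parm1 (0.93), Dhrs7 (0.92) and Map3k2 (0.92). Among members, Acly (0.98) and Fasn (0.97) were closest to the mean that they are part of, and Scd1 (0.58) the furthest. Tkt had a log2 fold change of 0.71 in overexpressors and of 0.36 in knockouts, neither passing limma's test (adjusted p = 0.913 and 1.00).

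**Figure D5:**
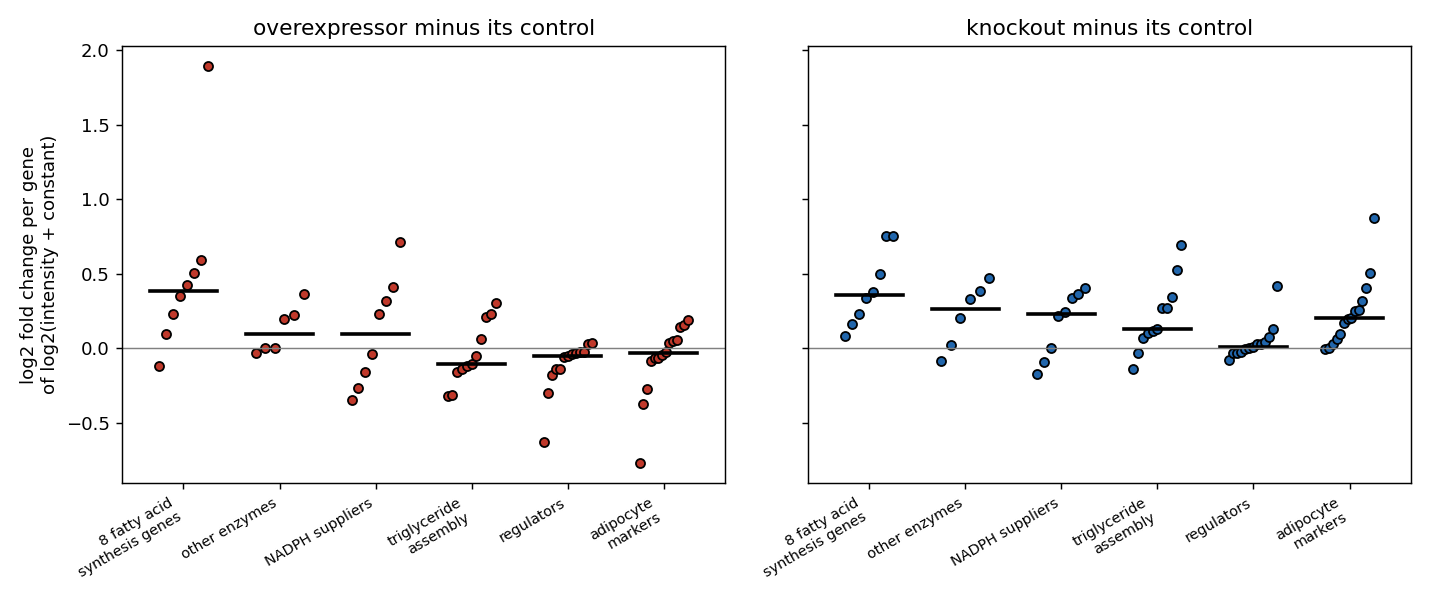
Log2 fold change of each tested gene (points) in 6 gene lists, overexpressor minus its control on the left and knockout minus its control on the right; bars are medians. The 8 fatty acid synthesis genes have medians of 0.38 and 0.36, and the adipocyte markers of -0.035 and 0.20. The list labelled NADPH suppliers also holds Tkt, Taldo1 and Pgls, which do not themselves make NADPH.

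Neighbouring steps were read from lists chosen by pathway. For the counts in these lists, 28.6% of all 5707 tested genes were above 0 in overexpressors and 64.0% in knockouts. Of 29 other enzymes of fatty acid synthesis and modification, 10 had a single-gene probe set and 6 were tested; Acaca, Acacb and, among regulators, Mlxipl, which encodes ChREBP, were not analysed here. In overexpressors 5 of the 6 were above 0 (median 0.098) and 0 were called. The largest value was that of Mid1ip1, a partner of Thrsp that activates acetyl-CoA carboxylase (0.36). Slc25a1, the mitochondrial citrate carrier, was at 0.22, and Fads1, a desaturase of polyunsaturated fatty acids, at 0.19. The others above 0, Elovl5 (0.0022) and Hsd17b12 (0.00058), were barely so. In knockouts 5 of 6 were above 0 (median 0.27) and 0 were called, with Slc25a1 at 0.47, Hsd17b12, which acts in elongation, at 0.38, and Mid1ip1 at 0.33.

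Of 8 tested genes of NADPH supply and the pentose phosphate pathway, 4 were above 0 in overexpressors (median 0.096) and 6 in knockouts (median 0.23), with 0 called in either. The list includes 3 enzymes of that pathway whose own reactions make no NADPH. These were Tkt, already named above for its pattern (0.71 in overexpressors), Taldo1 (0.23) and Pgls (-0.16). Pgd, a dehydrogenase of the pentose phosphate pathway, was at 0.41 in overexpressors and 0.25 in knockouts. H6pd was at 0.32 in overexpressors and -0.096 in knockouts. Idh2, the mitochondrial isocitrate dehydrogenase, was at -0.34 in overexpressors and 0.40 in knockouts. Idh1, the cytosolic form, was at -0.26 in overexpressors and 0.22 in knockouts. Every overexpressor was below every control for Idh1, as for 6.48% of tested probe sets in that direction. Of 11 tested genes of triglyceride assembly, 4 were above 0 in overexpressors (median -0.11) and 9 in knockouts (median 0.13), with 0 called. Gpd1, which makes glycerol 3-phosphate, was at 0.23 in overexpressors and 0.69 in knockouts. The phosphatidate phosphatase Lpin1 was at 0.30 in overexpressors and 0.52 in knockouts. Both were among the 4 above 0 in overexpressors. Of the 7 below 0 there, Gpat4 was at -0.31, again with every overexpressor below every control, and Acsl4 at -0.32. In knockouts Gpat4 was at -0.029 and Acsl4 at 0.27.

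Of 13 tested regulators, 2 were above 0 in overexpressors (median -0.052) and 8 in knockouts (median 0.0080), with 0 called. Nr1h3, which encodes the liver X receptor alpha, an activator of Srebf1 transcription, read 240, 363 and 361 in overexpressors, against 501, 545 and 480 in controls. These groups did not overlap, as for 483 of 7454 probe sets (6.48%) in that direction, and the log2 fold change was -0.63 (limma adjusted p = 0.854). In knockouts it read 446, 590 and 767, against 354, 567 and 394 in controls, with 0.42 (adjusted p = 1.00). The difference between the 2 effects was -1.05 (adjusted p = 0.514). Insig1, which holds SREBP in the endoplasmic reticulum, was at -0.061 in overexpressors and 0.13 in knockouts and had a low mean intensity.

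Markers of cell types were set beside these values, since fewer cells of a type and less RNA per cell cannot be told apart in bulk tissue. Their counts are to be read against all 5707 tested genes, of which 28.6% were above 0 in overexpressors and 64.0% in knockouts. The 14 tested adipocyte markers had a median log2 fold change of -0.035 in overexpressors (6 above 0) and 0.20 in knockouts (13 above 0), with summed intensities of 33254 to 44032 in overexpressors, 36966 to 43306 in their controls, 40570 to 46235 in knockouts and 38060 to 41711 in their controls. Cidec was furthest from 0 in overexpressors, at -0.77 (limma adjusted p = 0.307). It read 1139, 1728 and 1792 in overexpressors, against 2243, 2856 and 2834 in controls, without overlap, as for 6.48% of tested probe sets in that direction. In knockouts it was at 0.25. All 10 tested fibroblast and matrix markers were below 0 in overexpressors (median -0.40), with sums of 20818 to 26365 in overexpressors and 24590 to 36332 in their controls. In knockouts 7 of the 10 were below 0 (median -0.12), with sums of 20206 to 27806 in knockouts and 23193 to 29393 in their controls. The 5 tested brown adipocyte markers had a median of -0.31 in overexpressors (1 above 0) and 0.55 in knockouts (4 above 0). They summed to 826 to 2733 in overexpressors, lowest in overexpressor 1 and highest in overexpressor 2, as was the mean over the 8 genes. In the controls of that line the brown markers summed to 1378 to 4156. Control 3, with the highest mean over the 8 genes, had the highest sum. Control 2, with the lowest mean over the 8 genes, had 2373, above the 1378 of control 1. In knockouts the brown markers summed to 3377 to 4882, and knockout 3, with the lowest mean over the 8 genes of its group, had the highest sum. In the knockout controls they summed to 1176 to 4620, lowest in control 1 and highest in control 2, as was the mean over the 8 genes. No marker of these 3 lists was at the floor on all arrays, and none was called. Of 12 tested macrophage markers, 1 was above 0 in overexpressors (median -0.25) and 8 in knockouts (median 0.039), with 0 called. All 10 tested endothelial markers (median -0.24) and all 5 tested mesothelial markers (median -0.23) were below 0 in overexpressors, with 0 called. In knockouts 4 of the 10 endothelial and 1 of the 5 mesothelial markers were above 0, with 0 called. Of 5 tested B and T cell markers, 1 was above 0 in overexpressors (median -0.15) and 2 in knockouts (median -0.082). Ighm, the heavy chain of immunoglobulin M, was called in knockouts, at 1636, 2356 and 1742 against 842, 602 and 658 in controls (ratio of means 2.73, limma adjusted p = 0.0160). Of the other tested markers of that list, Cd2 was above 0 in knockouts (0.20). Cd79b (-0.11), Ms4a1 (-0.16) and Cd3e (-0.082) were below 0. Of those too dim to test, Cd79a was at 0.15, Cd3g at -0.12 and Cd3d at -0.10 in knockouts when dim probe sets were kept. The 7 tested ovary and oviduct markers had a median of 0.011 in overexpressors and -0.058 in knockouts, with 0 called. Among them Ovgp1 read 834 in knockout 1, against 185 and 122 in the other knockouts and 138, 166 and 145 in their controls. Inha, of the same list, was highest in knockout 2, at 349. The 6 tested liver markers had a median of -0.042 in overexpressors and -0.020 in knockouts, with 0 called. The part of these cell types in the values of the 8 genes was not tested.

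With weights estimated for each array, an alternative whose iteration gave a warning, 6 of the 8 genes were called in overexpressors (Elovl6, Acly, Fasn, Thrsp, Me1 and Srebf1), as were 419 of 7454 probe sets. Elovl6 was then at 2.91 and Acly at 1.37. The largest weight, 4.64, went to overexpressor control 2, the mouse with the lowest mean over these genes, and the other 2 controls had weights of 0.55 and 0.53. No other setting called any of the 8 genes in either comparison, and their lowest adjusted p there was 0.0790, for Elovl6 without overexpressor control 3.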

How the data were processed

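RNA from perigonadal fat of 12 mice was measured on Affymetrix arrays. The deposited values are linear intensities, 1 per probe set and array; per the labels' protocols, RNA was extracted with a Qiagen kit and labelled with biotin. How the authors summarised and scaled them is not stated in the labels or the file header. With 3 arrays per group, the small number of arrays sets the precision. Groups came from the sample titles, because the genotype field gives controls the value of their mutants.

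Here intensities were transformed as log2(intensity + 36.92), the 10th percentile of the table, which understates changes of dim probe sets. The 40% of probe sets with the lowest mean were left out (4968 of 12422), and 7454 were tested. A model with 1 mean per group, over the 12 arrays together, was run in R 4.3.3 through limma's lmFit and eBayes (version 3.58.1), the prior variance following intensity. The threshold was a Benjamini-Hochberg adjusted p of 0.05. An exact permutation test of 3 against 3 was not used, because it cannot reach this threshold. The fit was tested on simulated data. Figures were drawn with matplotlib 3.10.9.

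Genes were named from the platform annotation and updated by gene ID; 10833 probe sets had 1 symbol, 396 several and 1193 none, and 10817 matched the GRCm38.p6 gene table. The brightest single-gene probe set stood for a gene. All 8 members were named with every probe set. From each neighbouring list up to 4 genes per comparison with the smallest p could be named, and the 5 genes most like the members were taken by correlation. The members and lists were chosen with earlier results of these data known. The alternatives tried were other normalizations, constants, filters, variance settings, array weights, each line alone, a replicate block and leaving out each array.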

Additional observations from a re-analysis of the deposited data

How the results depend on the processing

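In overexpressors, 6 probe sets were called, 11 with array medians subtracted and 11 with quantile normalization, 1 on the line's own 6 arrays and 419 with array weights, and 3 (without overexpressor control 2) to 21 (without overexpressor control 3) when 1 array was left out. In knockouts 9 were called, 14 with array weights and 6 to 11 when 1 array was left out. The difference between the effects called 12, 1 when dim probe sets were kept, 43 with array weights and 1 (without overexpressor 3) to 13 when 1 array was left out. The replicate number as a block within each line, which did not pair the mice (correlations of deviations between same-numbered mice ran from -0.35 to 0.020), gave 0 calls in knockouts by limma and 1 in the difference, and it called none of the 8 genes. The cause of these shifts was not tested, except that smaller fits hold fewer arrays.

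The median log2 fold change over the 8 genes ran from 0.11 to 0.62 in overexpressors and from 0.10 to 0.70 in knockouts when 1 array was left out, and it was 0.88 in overexpressors with array weights. The number of members above 0 was 6 to 8 in overexpressors and 7 to 8 in knockouts over the arrays left out, a count added after the data were seen. Elovl6 stayed above 0 in overexpressors under every alternative run, from 1.31 without control 2 to 2.91 with array weights, and Scd2 stayed above 0 in knockouts under every alternative run, from 0.62 to 1.00. Scd2 in overexpressors turned to 0.0045 with quantile normalization and 0.59 with array weights, and ran from -0.50 to 0.13 over the arrays left out. Me1 ran there from -0.15 to 0.83, and Thrsp in knockouts from -0.11 to 0.71. Scd1 in overexpressors was at -0.0043 on its other tested probe set. Differences between the effects changed sign for Me1 with array weights (0.78) and for Scd1 on its other probe sets (-0.15 and -0.017). When 1 array was left out they ran from -0.41 to 0.42 for Acly, -0.13 to 0.31 for Fasn, -0.019 to 0.085 for Scd1, -0.21 to 0.61 for Thrsp, -0.90 to 0.076 for Me1 and -0.11 to 0.26 for Srebf1.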
